A study of Mus musculus with 12 samples.

Results

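The DNA damage repair genes described here are 42 genes of break repair, mismatch repair and excision repair, taken by symbol from an RNA-seq table of 24918 gene entries. They comprise 27 genes of break repair, 3 of mismatch repair and 12 of excision repair. The tested embryos were mouse 2-cell embryos grown with 50 µM IWR1-endo, called IWR1 here, a small molecule that inhibits tankyrase. The controls received DMSO, its solvent, at the same volume. In both groups the mother was NSA(CF-1) and the father B6SJLF1/J, and pronuclear embryos were taken 16 to 20 h after hCG, the hormone that triggers ovulation, and collected at 46 h. All were cultured in KSOM medium under 5% oxygen, and the labels name no genetic change in either group. RNA-seq had 4 independent collections of 10 pooled embryos in each group. ATAC-seq, which marks open chromatin with a transposase, had 2 collections of 100 pooled embryos in each group. The count table numbers the IWR1 libraries 5 to 8 and the DMSO libraries 1 to 4, and values given in a row follow that order.

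Cells repair DNA by several routes. Double-strand breaks are sensed by the MRN complex and the kinases ATM and ATR, then repaired by copying an intact sister in homologous recombination or rejoined directly by end joining, and the Fanconi genes act at crosslinks between the strands. Mismatch repair corrects copying errors, base excision repair removes damaged single bases, and nucleotide excision repair cuts out bulky lesions. In the early mouse embryo, RNA stored in the egg is degraded while the embryo's own genome starts to be transcribed, mainly at the 2-cell stage, so an mRNA level there mixes stored and new transcripts.

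Total gene counts ran from 17963977 to 32931800 in the IWR1 libraries and from 16606155 to 49672143 in the DMSO libraries. The markers of the 2-cell embryo were present in both groups, with summed levels of 1400 to 2284 FPKM (counts scaled by gene length and by the library's total) in IWR1 and 448 to 546 FPKM in DMSO, and 7 of 14 table entries passed the test, all higher. The other 7 entries, all for Gm6763, were at 0. Oocyte markers summed to 12611 to 19820 FPKM in IWR1 and 2122 to 4198 FPKM in DMSO, with 7 of 12 higher and Zp3 lower. Nlrp5, Ooep, Figla and Mos were not called. Most of the sum came from Btg4 (mean 10223 FPKM in IWR1, 1455 FPKM in DMSO) and Oosp1 (3933 and 1483 FPKM). Sperm markers summed to 12.2 to 26.3 FPKM in IWR1 and 0.677 to 1.91 FPKM in DMSO, with 3 of 6 higher. Markers of cumulus or granulosa cells summed to 6.38 to 12.5 FPKM in IWR1 and 2.46 to 4.35 FPKM in DMSO, with 1 of 10 higher and Amh and Inhba at 0. Blood markers stayed between 0.0839 and 1.35 FPKM in IWR1 and between 1.18 and 1.65 FPKM in DMSO, with Itgam lower and haemoglobin genes and Ptprc at 0. The part of the oocyte, sperm, cumulus or 2-cell transcripts in the results below was not tested. In pooled embryos, fewer embryos with a transcript and fewer copies per embryo cannot be told apart.

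Repair mRNAs were more often lower than higher in IWR1 embryos. Of the 42 genes, 41 passed the filter on low counts. By edgeR's quasi-likelihood test, adjusted by Benjamini-Hochberg over all 14994 genes tested with a threshold of 0.05, 2 were higher in IWR1 (Msh3 and Polb), 20 were lower and 19 were not called. The lower genes made up 48.8% of the repair genes tested, beside 25.4% of all genes, and the higher genes 4.88%, beside 23.3% of all genes. Among 5039 genes of similar level, with a mean between 1.95 and 12.1 FPKM (the repair genes' interquartile range), 26.1% were lower and 27.4% higher. The median log2 fold change, IWR1 over DMSO, was -0.71 over the repair genes and 0.17 over all genes tested. It was negative for 28 repair genes and positive for 13. In 17 genes every IWR1 library was below every DMSO library (22.0% of all genes tested), and in 2 every IWR1 library was above (28.3%). Apex1, Ercc3 and Nbn were called lower although their libraries overlapped.

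**Figure D1:**
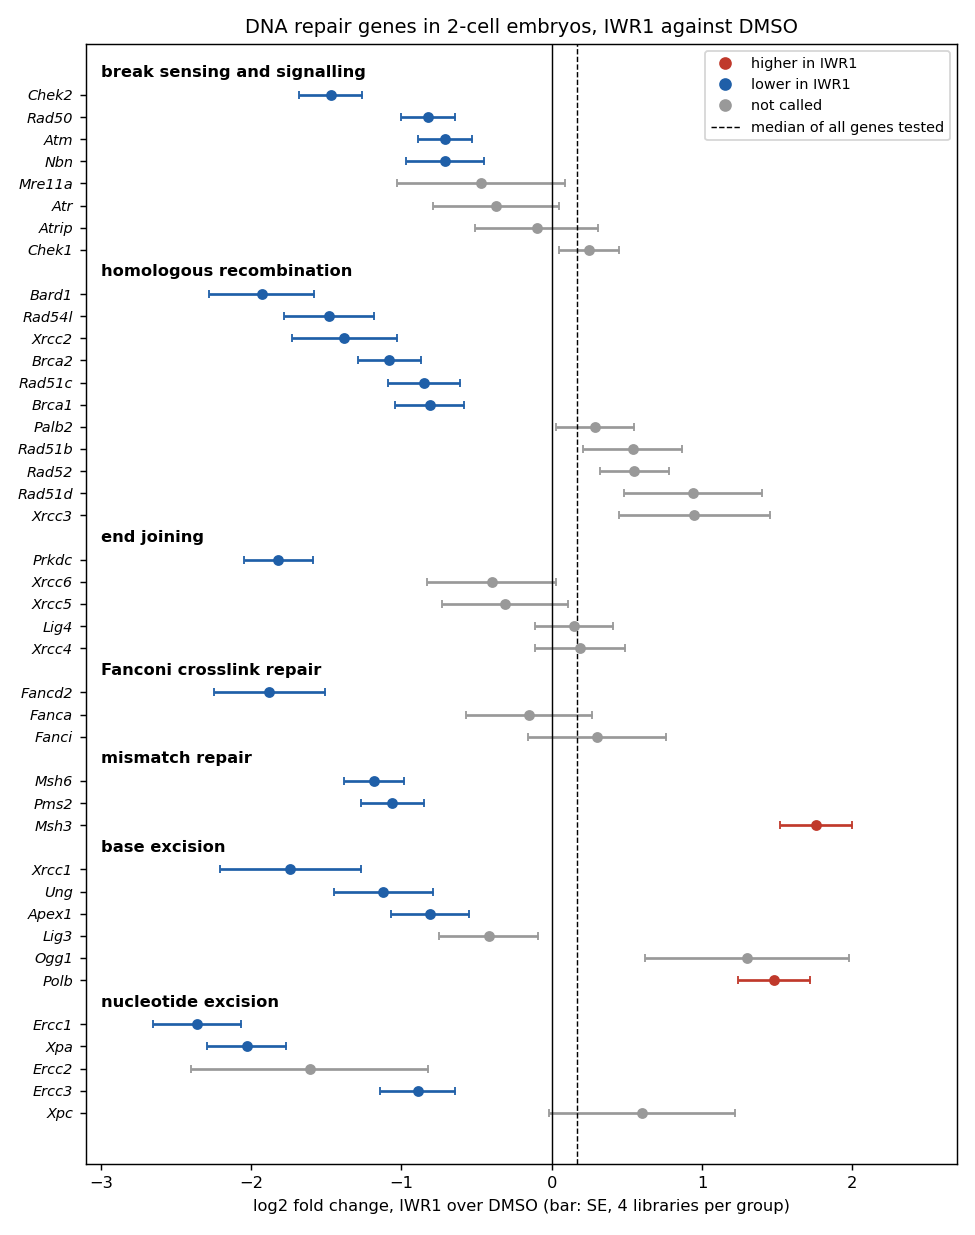
Log2 fold change (IWR1 over DMSO) of the 41 repair genes tested, in 7 subclasses, with bars for 1 standard error and 4 libraries per group. Blue marks 20 genes called lower in IWR1, red marks Msh3 and Polb, called higher, grey marks 19 genes not called, and the dashed line is the median of all genes tested, 0.17.

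Each of the 22 calls had 1 direction in every alternative tried. The 7 alternatives of scaling, filter or tool and the removal of any single library left the repair genes' median between -0.53 and -0.83, with the median of all genes between -0.01 and 0.39. Removing any 1 library left 19 of the 22 calls in place, and the exceptions were Nbn, Ung and Apex1. By total count within each group, the lower libraries were called shallow (IWR1 5 and 7, DMSO 1 and 2). The higher ones were called deep (IWR1 6 and 8, DMSO 3 and 4). The deep libraries still differed between groups, with total counts of 32931800 and 27408106 in IWR1 and 49448988 and 49672143 in DMSO. With 2 libraries per group, 8 of the 22 calls passed within the shallow libraries and 14 within the deep ones. Within the shallow libraries 6 repair genes were lower, a share near that of all genes there.

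Open chromatin was described by the authors' deposited lists of 2345 regions higher and 1400 regions lower in IWR1, which carry no value per library. A region higher in IWR1 lay within 10 kb of 7 of the 42 genes (16.7%, beside 13.6% of genes tested), namely Chek1, Rad50, Xrcc5, Ung, Rad52, Fanci and Ercc1. A region lower in IWR1 lay within 10 kb of Atr and Rad52 (4.76%, beside 4.49%). Within 1 kb the counts were 5 (11.9%, beside 7.26%) and 0 (0.636% of genes tested). Both shares within 10 kb are thus near the background. At Chek1 (chr9:36726165-36727294), Rad50 (chr11:53706401-53707799), Xrcc5 (chr1:72306896-72307896), Ung (chr5:114129260-114131847) and Rad52 (chr6:119902258-119903258) the region that was higher covered a boundary of the gene or lay inside it near an annotated start. Of these genes Rad50 and Ung had lower mRNA in IWR1, and Chek1, Xrcc5 and Rad52 were not called.

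The 250 bases before the start of Chek1, Xrcc5, Ung and Rad52 are shown because the changed chromatin covers them. Rad50 has no entry in the promoter table and is not shown. Sequences are from RefSeq, build GRCm38.p6, on the gene's own strand from 5′ to 3′. Capitals mark a searched motif.
Chek1, chr9:36726659-36726908, minus strand: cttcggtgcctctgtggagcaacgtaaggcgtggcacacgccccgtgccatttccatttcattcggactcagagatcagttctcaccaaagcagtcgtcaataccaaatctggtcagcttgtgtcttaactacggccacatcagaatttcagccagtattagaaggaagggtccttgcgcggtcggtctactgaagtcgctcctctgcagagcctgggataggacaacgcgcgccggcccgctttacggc
Xrcc5, chr1:72307171-72307420, plus strand: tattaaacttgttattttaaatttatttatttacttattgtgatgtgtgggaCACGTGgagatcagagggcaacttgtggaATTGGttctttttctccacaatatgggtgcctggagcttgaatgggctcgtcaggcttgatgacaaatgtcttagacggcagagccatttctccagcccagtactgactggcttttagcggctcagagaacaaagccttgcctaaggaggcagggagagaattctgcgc
Ung, chr5:114130185-114130434, plus strand: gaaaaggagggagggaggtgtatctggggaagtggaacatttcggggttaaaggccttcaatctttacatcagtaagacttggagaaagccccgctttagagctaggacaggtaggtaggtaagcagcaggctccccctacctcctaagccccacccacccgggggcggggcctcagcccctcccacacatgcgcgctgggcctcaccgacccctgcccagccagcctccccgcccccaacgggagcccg
Rad52, chr6:119902448-119902697, plus strand: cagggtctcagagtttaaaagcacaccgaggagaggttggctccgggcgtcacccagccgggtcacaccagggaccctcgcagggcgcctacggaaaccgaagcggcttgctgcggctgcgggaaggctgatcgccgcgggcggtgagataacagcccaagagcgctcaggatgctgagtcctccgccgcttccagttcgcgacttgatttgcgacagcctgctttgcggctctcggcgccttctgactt
The capitals in Xrcc5 are an E-box, CACGTG, and a CCAAT motif read on the opposite strand. Both strands were searched from 250 bases before to 50 after the start, in the 33 repair genes with a promoter in the table and in 11913 genes tested. The E2F motif (GGCGGGAA or TTTGGCGC) was in 4 of the 33 (Chek1, Msh3, Msh6 and Rad51c) and in 5.39% of all genes. The NRF1 motif GCATGCGC was in 5 and in 5.56%, CCAAT in 20 and in 43.2%, CACGTG in 4 and in 11.2%, and TATAAA in 2 and in 10.3%. A match is a run of letters and does not show that a factor binds there.

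Break repair mRNAs were lower or not called. None of the 27 was higher (23.3% of all genes were), 12 were lower (44.4%, beside 25.4%), and their median log2 fold change was -0.40. At an unadjusted edgeR p under 0.05, 1 (Rad52) had a positive change, and DESeq2 and limma-voom each called 1 higher.

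In sensing and signalling, 4 of 8 genes were lower (50.0%, beside 25.4% of all genes) and 0 were higher (23.3% of all genes were). Chek2, the checkpoint kinase downstream of ATM (chr5:110839800-110874140), was at 22.8, 30.0, 35.9 and 26.7 FPKM in IWR1, against 51.9, 83.2, 65.6 and 79.7 FPKM in DMSO. Its IWR1 libraries all lay under its DMSO libraries, with a log2 fold change of -1.47 (SE 0.21, edgeR adjusted p = 0.000124). Chek1, the checkpoint kinase downstream of ATR, was at 64.8, 76.6, 62.5 and 78.7 FPKM in IWR1 and at 63.5, 58.7, 55.2 and 33.2 FPKM in DMSO. These groups overlapped and Chek1 was not called (0.25, SE 0.20, adjusted p = 0.320), although it passed when the test was limited to genes averaging 5 FPKM or more (adjusted p = 0.0475, and 0.0475 to 0.942 over all alternatives). The DMSO library 4 was the low one.

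The MRN complex binds broken ends and recruits ATM. Rad50, its ATPase, was at 9.29, 7.62, 7.68 and 8.90 FPKM in IWR1, against 15.3, 14.2, 11.1 and 12.2 FPKM in DMSO (log2 fold change -0.82, SE 0.18, edgeR adjusted p = 0.00239). Atm, the kinase that breaks activate, was at 9.38, 8.67, 11.6 and 10.1 FPKM in IWR1, against 15.2, 12.3, 12.9 and 16.8 FPKM in DMSO (-0.71, SE 0.18, adjusted p = 0.00593). For both genes the groups were separate, at a fall that was small beside that of Chek2. Nbn, the MRN subunit that recruits ATM, averaged 5.81 ± 1.39 FPKM in IWR1 and 8.38 ± 1.76 FPKM in DMSO (SD, n = 4 each; -0.71, SE 0.26, edgeR adjusted p = 0.0395). Its groups overlapped, and its call was lost without any of 5 single libraries (IWR1 5, 6 or 7, DMSO 2 or 3; adjusted p 0.0341 to 0.121 over all removals). It was also lost with the size factors of DESeq2 (0.0518), library totals (0.119), no filter on low counts (0.0510) and the filter at 5 FPKM (0.123), as edgeR adjusted p. The nuclease gene Mre11a ranged from 0.344 to 2.92 FPKM in IWR1 and from 1.82 to 2.82 FPKM in DMSO and was not called. Atr and its partner Atrip were at 0.364 to 1.29 and 1.75 to 3.18 FPKM in IWR1, against 0.646 to 1.46 and 1.31 to 4.07 FPKM in DMSO, and were not called either.

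Homologous recombination had 6 of 11 genes lower (54.5%, beside 25.4% of all genes). The other 5 had positive log2 fold changes that missed the threshold (45.5%, beside 53.8% of all genes with a positive change). Bard1, the RING partner of BRCA1 (chr1:71027535-71103141), was at 0.950, 0.619, 0.909 and 0.596 FPKM in IWR1, against 1.75, 3.16, 2.04 and 3.44 FPKM in DMSO. Every IWR1 library was below 1 FPKM and every DMSO library above it, and the log2 fold change was -1.93 (SE 0.35, edgeR adjusted p = 0.000676). Brca1, the ubiquitin ligase that promotes resection of the ends, was at 2.03, 2.66, 3.35 and 2.68 FPKM in IWR1, against 3.55, 5.42, 3.37 and 4.32 FPKM in DMSO. The groups were separate only by the small gap between IWR1 library 7 and DMSO library 3, with a log2 fold change of -0.81 (SE 0.23, adjusted p = 0.0115). The call was lost with scaling by library totals (edgeR adjusted p = 0.0509).

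Brca2, a mediator of recombination, had the highest mean level per length of this group over all 8 libraries. It was at 16.8, 18.3, 26.1 and 23.1 FPKM in IWR1, against 33.4, 38.5, 48.2 and 35.6 FPKM in DMSO, with no overlap (log2 fold change -1.08, SE 0.21, edgeR adjusted p = 0.00110). Palb2, which bridges BRCA1 and BRCA2, was at 4.74, 5.96, 5.43 and 5.68 FPKM in IWR1 and at 3.11, 5.13, 4.64 and 2.77 FPKM in DMSO. Palb2 overlapped between groups and was not called (0.29, SE 0.26, adjusted p = 0.374). Rad54l, a translocase of recombination, was at 1.70, 3.19, 1.74 and 1.97 FPKM in IWR1, against 6.56, 6.45, 4.19 and 4.20 FPKM in DMSO. It fell without overlap (-1.48, SE 0.30, adjusted p = 0.00144).

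Of the 5 genes of the BCDX2 and CX3 complexes, 2 were lower (25.4% of all genes were) and 3 were not called. BCDX2 (RAD51B, RAD51C, RAD51D, XRCC2) and CX3 (RAD51C, XRCC3) act in homologous recombination. Xrcc2 was at 1.11, 3.25, 2.93 and 2.72 FPKM in IWR1, against 4.01, 8.42, 4.56 and 6.09 FPKM in DMSO. Rad51c was at 6.28, 4.26, 4.96 and 7.55 FPKM in IWR1, against 10.6, 11.1, 7.66 and 7.80 FPKM in DMSO. Both were lower without overlap (log2 fold change -1.38, SE 0.35, edgeR adjusted p = 0.00601 for Xrcc2, and -0.85, SE 0.24, adjusted p = 0.0124 for Rad51c). Rad51d was at 1.67, 1.74, 0.725 and 0.833 FPKM in IWR1 and at 0.985, 0.731, 0.286 and 0.381 FPKM in DMSO. Xrcc3 was at 4.18, 2.23, 3.64 and 3.99 FPKM in IWR1 and at 0.472, 2.20, 2.37 and 1.26 FPKM in DMSO. Rad51d, Xrcc3 and Rad51b had log2 fold changes of 0.94, 0.95 and 0.54, overlapped and were not called, with adjusted p of 0.108, 0.135 and 0.201. Rad51d passed with limma-voom (adjusted p = 0.0373; 0.0373 to 0.600 over its alternatives) and Rad51b without DMSO library 3 (adjusted p = 0.0431; 0.0431 to 0.931 over its alternatives).

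Rad52, a single-strand annealing protein named here after its values were seen, has changed chromatin both over its start and outside the gene. It was at 31.6, 27.8, 29.8 and 17.7 FPKM in IWR1 and at 14.0, 19.1, 15.4 and 16.4 FPKM in DMSO. IWR1 libraries 5, 6 and 7 were above every DMSO library while IWR1 library 8 lay among them, and Rad52 was not called (log2 fold change 0.55, SE 0.23, edgeR adjusted p = 0.0655). Without IWR1 library 8 its adjusted p was 0.0158, and over all its alternatives adjusted p ran from 0.00962 to 0.679. In the authors' deposited table its adjusted p was 0.0331.

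In end joining 1 of 5 genes was lower (20.0%), a share near the 25.4% of all genes. Prkdc, the catalytic subunit of DNA-dependent protein kinase (chr16:15637444-15842239), was at 0.944, 1.44, 1.87 and 1.88 FPKM in IWR1, against 4.93, 5.07, 4.51 and 4.60 FPKM in DMSO. The DMSO values spread over less than 1 FPKM and lay above every IWR1 value, with a log2 fold change of -1.82 (SE 0.23, edgeR adjusted p = 5.68e-05). The Ku subunits that recruit this kinase to ends were not called. Xrcc5 (Ku80) ranged from 1.38 to 4.61 FPKM in IWR1 and from 2.74 to 4.48 FPKM in DMSO, and Xrcc6 (Ku70) from 3.27 to 6.06 FPKM in IWR1 and from 1.90 to 11.2 FPKM in DMSO. The ligase gene Lig4 and its scaffold Xrcc4 had log2 fold changes of 0.15 and 0.19 and were not called.

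Of the 3 Fanconi genes, Fancd2 was lower (33.3%, beside 25.4% of all genes). Fancd2, the clamp protein ubiquitinated at crosslinks (chr6:113531640-113597020), was at 0.687, 1.42, 0.790 and 0.649 FPKM in IWR1, against 2.77, 1.94, 3.73 and 2.87 FPKM in DMSO. Its groups were separate (log2 fold change -1.88, SE 0.37, edgeR adjusted p = 0.00129). Fanci, its partner in the clamp, was at 0.856, 1.20, 0.520 and 0.853 FPKM in IWR1 and at 0.521, 0.718, 0.665 and 0.549 FPKM in DMSO, with overlap and no call (0.30, SE 0.46, adjusted p = 0.617). Fanca, a core complex subunit, was not called (-0.15, SE 0.42, adjusted p = 0.781). The model Fancd2os overlaps Fancd2 and fell as well (-3.14, SE 0.64, adjusted p = 0.00149); since no strand is stated for the counting, reads of the overlapping stretch cannot be told apart.

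Mismatch repair had 1 gene higher and 2 lower of 3 (33.3% and 66.7%, beside 23.3% and 25.4% of all genes). Msh3, which reads insertion and deletion loops (chr13:92211878-92355004), was at 86.6, 91.5, 48.7 and 75.9 FPKM in IWR1, against 22.9, 26.4, 17.5 and 13.3 FPKM in DMSO. Its lowest IWR1 library, number 7, was still above its highest DMSO library, and the log2 fold change was 1.76 (SE 0.24, edgeR adjusted p = 0.000106). Msh6, which reads base mismatches (chr17:87975050-87990892), was at 7.82, 6.47, 7.35 and 7.95 FPKM in IWR1, against 12.8, 14.7, 16.6 and 14.7 FPKM in DMSO. The Msh6 groups were narrow and far apart, with a log2 fold change of -1.18 (SE 0.20, adjusted p = 0.000459). Pms2, an endonuclease of mismatch repair (chr5:143909901-143972745), was at 9.14, 15.5, 18.5 and 16.8 FPKM in IWR1, against 29.9, 28.2, 22.1 and 29.9 FPKM in DMSO. Pms2 also fell without overlap (-1.06, SE 0.21, adjusted p = 0.00142).

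**Figure D2:**
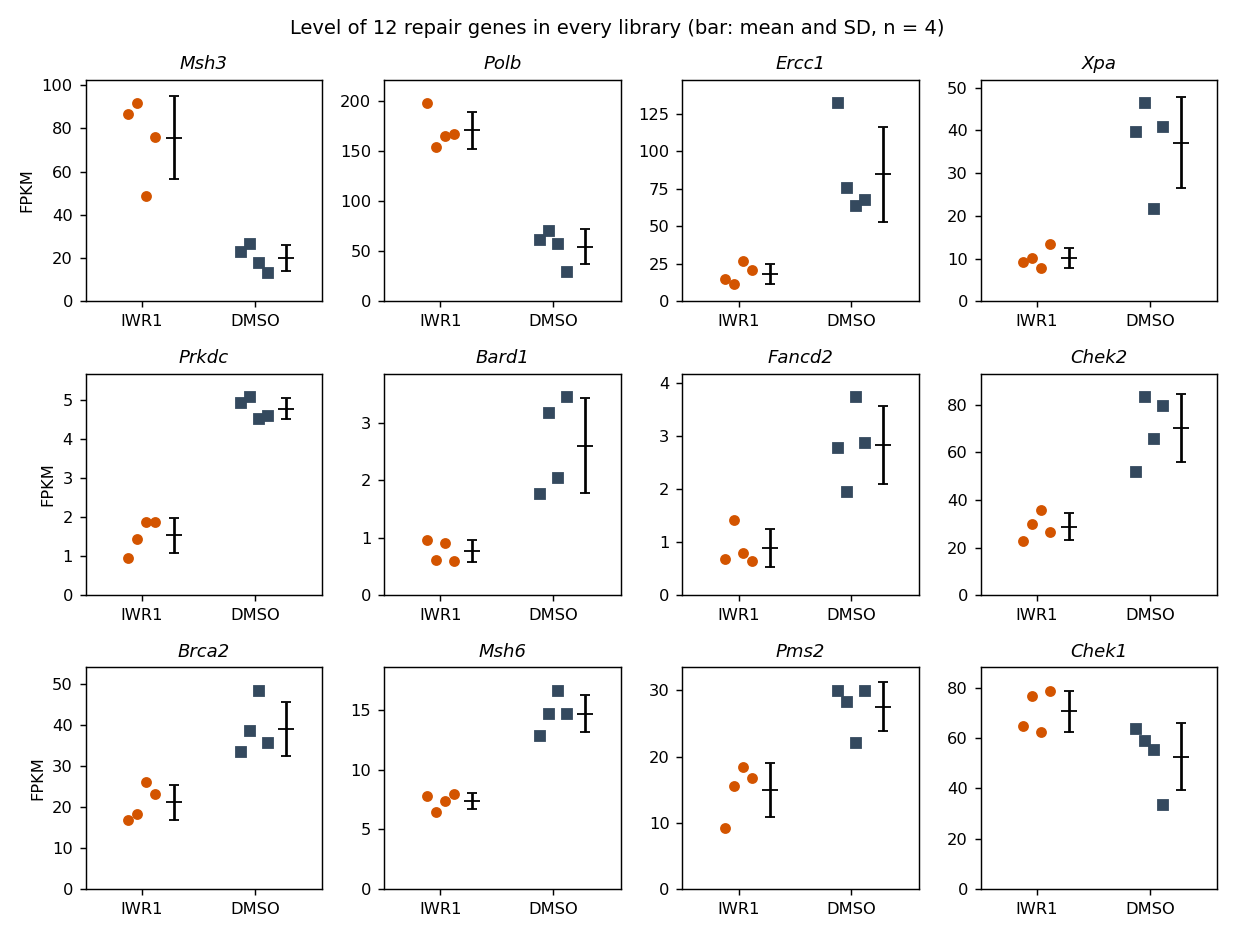
Level in FPKM of 12 repair genes in each of the 4 IWR1 (circles) and 4 DMSO (squares) libraries, with mean and SD beside the points. Msh3 and Polb lie higher in every IWR1 library, Chek1 overlaps between groups, and the 9 other genes lie lower in every IWR1 library.

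In excision repair 1 gene was higher and 6 were lower of 11 tested (9.09% and 54.5%, beside 23.3% and 25.4%), with a median log2 fold change of -0.89. Base excision held Polb, the gap-filling polymerase gene and the most abundant of the 42 per length. It was at 198, 154, 165 and 167 FPKM in IWR1, against 61.3, 70.8, 57.8 and 29.4 FPKM in DMSO. All IWR1 libraries were far above the DMSO libraries, of which number 4 was low, and the log2 fold change was 1.48 (SE 0.24, edgeR adjusted p = 0.000337).

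The scaffold of the same route moved the other way. Xrcc1, the scaffold of single-strand break repair, was at 0.413, 0.733, 1.05 and 1.05 FPKM in IWR1, against 2.77, 2.61, 1.89 and 2.36 FPKM in DMSO, without overlap (log2 fold change -1.74, SE 0.47, edgeR adjusted p = 0.00853). Ung, the uracil glycosylase, was at 2.79, 4.81, 7.11 and 7.05 FPKM in IWR1, against 7.98, 8.16, 11.4 and 13.2 FPKM in DMSO (-1.12, SE 0.33, adjusted p = 0.0150). Its groups were separate, and its start lay in a region of higher accessibility. Without DMSO library 3 its adjusted p was 0.0502 (0.0146 to 0.0502 over all removals of 1 library). Apex1, the endonuclease at abasic sites, averaged 18.1 ± 4.15 FPKM in IWR1 and 27.6 ± 6.84 FPKM in DMSO (SD, n = 4 each; -0.81, SE 0.26, edgeR adjusted p = 0.0225). Its groups overlapped, and over the removals of 1 library its adjusted p ran from 0.0123 to 0.0782, and was above 0.05 without IWR1 library 5 or 6, or DMSO library 3 or 4. Its call was also lost with library totals (edgeR adjusted p = 0.0655) and among genes of at least 5 FPKM (0.0566). Lig3, the ligase that partners XRCC1, and Ogg1, the glycosylase of 8-oxoguanine, had log2 fold changes of -0.42 and 1.30 and were not called. Tdg, the thymine glycosylase, had 1 count in all 8 libraries together and was not tested; RefSeq lists the copies Tdg-ps and Tdg-ps2, and the sources used here do not say how reads shared with a copy were counted.

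Nucleotide excision repair held the 2 largest falls of the 42 genes, and 3 of its 5 genes were lower (60.0%, beside 25.4% of all genes). Ercc1, the partner of the XPF nuclease (chr7:19344067-19356524), was at 15.0, 11.5, 26.6 and 20.7 FPKM in IWR1, against 132, 75.5, 63.7 and 67.7 FPKM in DMSO. The highest IWR1 library was well under the lowest DMSO library, with DMSO library 1 the high one, and the log2 fold change was -2.36 (SE 0.29, edgeR adjusted p = 5.49e-05). Xpa, the scaffold that verifies damage (chr4:46175220-46196344), was at 9.21, 10.2, 7.91 and 13.3 FPKM in IWR1, against 39.7, 46.3, 21.7 and 40.8 FPKM in DMSO. Xpa was lower without overlap (-2.03, SE 0.26, adjusted p = 7.49e-05). Ercc3, a translocase of the TFIIH complex that opens the helix, was at 4.98, 7.16, 5.47 and 5.75 FPKM in IWR1, against 10.5, 6.56, 9.06 and 11.6 FPKM in DMSO. DMSO library 2 lay within the IWR1 range (-0.89, SE 0.25, adjusted p = 0.0122).

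Ercc2, the TFIIH helicase, stood at 0.0599 to 0.636 FPKM in IWR1 and 0.525 to 0.985 FPKM in DMSO, with a large but imprecise log2 fold change (-1.61, SE 0.79, edgeR adjusted p = 0.111). Without IWR1 library 7 its adjusted p was 0.0330 (0.0227 to 0.482 over all its alternatives). Xpc, the damage sensor, ranged from 0.432 to 2.27 FPKM in IWR1 and from 0.356 to 1.16 FPKM in DMSO and was not called (0.60, SE 0.62, adjusted p = 0.442). Ercc1 overlaps the model Cd3eap, which also fell (-1.85, SE 0.30, adjusted p = 0.000289). Msh6 overlaps Fbxo11, which also fell (-0.71, SE 0.18, adjusted p = 0.00517). In all, 22 of the 42 genes overlap another RefSeq gene model.

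A ratio of FPKM between 2 genes of a library cancels the scaling of that library, except through the pseudocount, which weighs on genes of low level. The log2 ratio of FPKM was compared for 16 pairs with a pseudocount of 0.1 FPKM, by an exact two-sided permutation test whose smallest p with 4 against 4 libraries is 0.0286. Of 15 pairs with both genes measurable, 7 had ratios that did not overlap between groups. Of all pairs that can be made from the genes tested, 43.9% did not overlap, and of the 820 pairs among the repair genes tested 39.8%, so the count for partner genes is near the background. Each had an exact p of 0.0286 and 0.0571 after Benjamini-Hochberg adjustment over the 16 pairs, so none passed 0.05 after adjustment.

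The mismatch pair had the largest difference of the 16. The log2 ratio of Msh6 to Msh3 was -3.45, -3.80, -2.71 and -3.24 in IWR1, against -0.83, -0.84, -0.08 and 0.14 in DMSO, a difference of -2.90. Chek2 over Chek1 averaged -1.30 ± 0.35 in IWR1 and 0.43 ± 0.64 in DMSO (SD, n = 4 each), a difference of -1.73. Brca2 over Palb2 averaged 1.91 ± 0.27 in IWR1 and 3.31 ± 0.31 in DMSO, a difference of -1.40. In these 3 pairs the first gene was lower relative to the second in every IWR1 library. Fancd2 over Fanci averaged 0.03 ± 0.41 in IWR1 and 2.01 ± 0.47 in DMSO, a difference of -1.98. Rad51d over Xrcc2 averaged -0.95 ± 1.09 in IWR1 and -3.14 ± 0.82 in DMSO, a difference of 2.19. Xrcc3 over Rad51c averaged -0.70 ± 0.24 in IWR1 and -2.67 ± 1.10 in DMSO, a difference of 1.97. In both of these recombination pairs the ratio was higher in every IWR1 library. For Rad51d over Xrcc2 the gap was small, between -1.88 in IWR1 library 7 and -1.92 in DMSO library 1. Brca1 over Bard1 averaged 1.68 ± 0.45 in IWR1 and 0.69 ± 0.27 in DMSO, a difference of 0.99, which shrank to 0.52 with overlapping groups (exact p = 0.0571) at a pseudocount of 1 FPKM.

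The other pairs overlapped. Rad51b over Rad51c (difference 1.45) and Lig3 over Xrcc1 (1.30) had an exact p of 0.0571 each. The Ku pair (Xrcc5 over Xrcc6, -0.15), the end joining ligase and its scaffold (Lig4 over Xrcc4, -0.05) and Rad50 over Mre11a (-0.03) had differences near 0, with exact p of 0.886, 0.800 and 0.971. The ratio of Ung to Tdg could not be read, because Tdg was at or near 0 in every library.

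**Figure D3:**
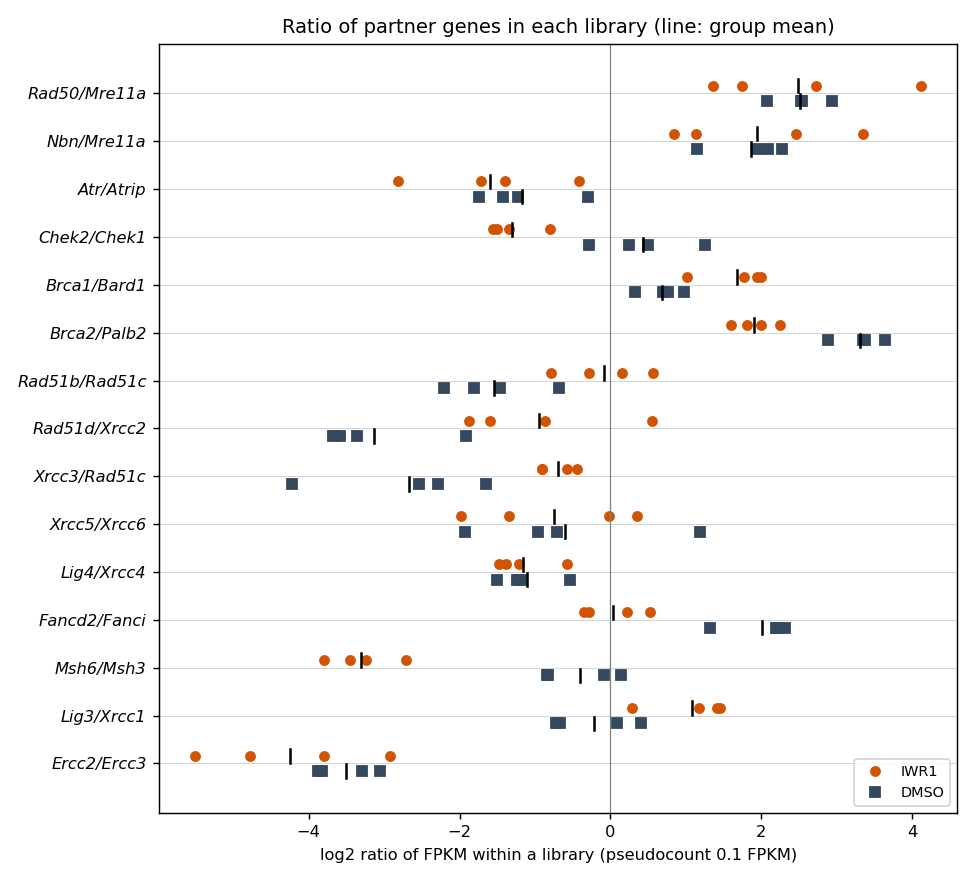
Log2 ratio of FPKM between partner genes in each of the 4 IWR1 and 4 DMSO libraries, with a pseudocount of 0.1 FPKM. Msh6 over Msh3 is lower in every IWR1 library than in any DMSO library, with a difference of -2.90, while Lig4 over Xrcc4 overlaps.

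Repair genes outside the 42 were described from a list of 110 in the table, of which 107 were tested. They too were more often lower, with 46 lower (43.0%), 11 higher (10.3%) and a median log2 fold change of -0.46, beside 25.4%, 23.3% and 0.17 over all genes tested. The smallest adjusted p among the lower ones belonged to Gtf2h2, a TFIIH subunit, at 20.6, 27.0, 27.8 and 18.5 FPKM in IWR1 against 93.7, 105, 121 and 122 FPKM in DMSO. It was followed by Smc5, a subunit of the SMC5/6 complex (-2.67), Psmc3ip, a recombination accessory factor (-2.86), Shfm1, a small partner of BRCA2 (-1.55), and Cdk7, the TFIIH kinase (-1.73), as log2 fold changes. The higher ones were led by Nhej1, the end joining factor XLF, at 219, 182, 111 and 92.8 FPKM in IWR1 against 26.1, 40.7, 30.6 and 22.7 FPKM in DMSO (2.17, SE 0.30, edgeR adjusted p = 0.000114). Nhej1 was separate between groups and highest in IWR1 library 5. Next came Msh4, a meiotic relative of Msh3 and Msh6 (1.14), Ercc4, which encodes the XPF nuclease partner of ERCC1 (1.08), Fancb, a Fanconi core subunit (1.61), and Brcc3, a deubiquitinase (0.74). Ercc4 and Ercc1 therefore changed in opposite directions, at 13.3, 26.6, 23.0 and 21.2 FPKM for Ercc4 in IWR1 against 8.06, 10.8, 8.19 and 7.94 FPKM in DMSO.

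**Figure D4:**
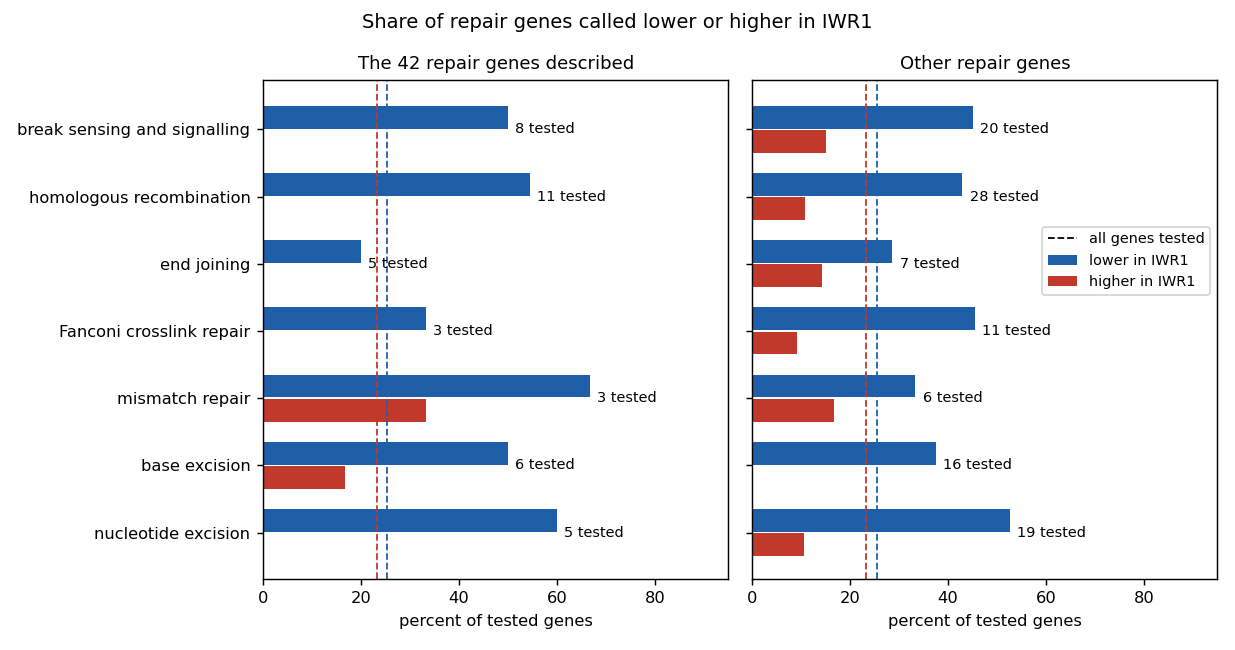
Percent of tested genes called lower (blue) or higher (red) in IWR1 by edgeR, for each subclass of the 42 repair genes (left) and of the other repair genes (right), with the number tested beside the bars. The dashed lines mark 25.4% lower and 23.3% higher over all genes tested, and nucleotide excision has 60.0% lower among its 5 genes.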

How the data were processed

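RNA-seq libraries were made with the SMART-Seq v4 kit, per the labels' protocols. The submitters' processing notes list STAR 2.5.1b, featureCounts 1.5.0-p1, DESeq2, Bowtie2 2.2.6, MACS2, Trim Galore, cutadapt 1.11, bcl2fastq and the build mm10, and do not say what each was used for. The authors deposited raw counts per gene and library, with no entry that names no gene (0 of 24918). They also deposited FPKM for the DMSO libraries, and FPKM of all 8 libraries was recomputed from counts, gene lengths as deposited and library totals. For the DMSO libraries it differed from theirs by at most 2.62e-10. The recomputed FPKM of the IWR1 libraries was not compared with deposited values. The authors' deposited log2 fold changes and p-values, raw and adjusted, were used only for comparison. The deposited ATAC-seq lists hold positions only, so their depth is unknown, and coordinates are printed as deposited. The IWR1 columns are numbered 5 to 8 and carry no number of the labels, so they were assigned to the group; 12 further columns with values of single libraries were left out.

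Counts were tested with edgeR 4.0.16 in R 4.3.3: filterByExpr, TMM scaling, treatment as the only term, quasi-likelihood test, two-sided, Benjamini-Hochberg over 14994 genes, threshold 0.05. TMM estimates library scaling from the bulk of genes, and FPKM uses library totals, so a ratio of mean FPKM can differ from the fitted fold change. The standard error is the log2 fold change over the square root of F. Levels compared between genes are FPKM, which are per length. P-values set the difference between groups against the spread between collections. The procedure was tested on simulated counts. Alternatives were DESeq2 1.42.0, limma 3.58.1 (voom), other scalings and filters, each library left out, and depth tiers. Partner ratios used SciPy 1.17.1 under Python 3.11.15. Gene positions and promoters were matched by gene ID or symbol to RefSeq tables of GRCm38.p6.

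The members and lists were chosen with earlier results of these data known. Genes named with a value in every library were, in each subclass, up to 3 called genes by smallest adjusted p, every mismatch repair gene, and both genes of each ratio whose groups did not overlap; other repair genes were named up to 5 per direction by smallest adjusted p. Promoters were those with a changed region over the start. Genes said to be chosen after their values were seen are exceptions.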

Additional observations from a re-analysis of the deposited data

Results flagged for a closer look

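Of 82 groups of 4 libraries examined, 2 for each repair gene tested, 1 held a library far from the other 3 by Dixon's criterion, which chance meets in about 1 group in 20. In DMSO library 1, Xrcc4, the scaffold of DNA ligase IV, was at 11.0 FPKM, while the other DMSO libraries were at 5.92 to 6.50 FPKM. The gap was 0.89 of the whole range of the group. Xrcc4 was not called in any alternative (edgeR adjusted p 0.267 to 0.995).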

How the results depend on the processing

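No repair gene reversed a call under any alternative. Of the 22 called genes, Chek2, Prkdc, Fancd2, Msh3, Polb, Xpa and Ercc1 passed in every setting in which they were tested, where Prkdc and Fancd2 were not tested among genes of at least 5 FPKM. Counted once per gene or partner ratio in each alternative, 40 cases lost a p under 0.05 and 10 gained it. A gene can count more than once. Genes were judged by adjusted p, and ratios by the exact p before adjustment. Against 0 in the main test, break repair genes called higher numbered 1 with RLE scaling (the size factors of DESeq2), library totals, DESeq2 or limma-voom, 2 among genes of at least 5 FPKM, and 0 to 1 with a library left out (1 without DMSO library 3 or IWR1 library 8). Among genes of at least 5 FPKM, where fewer genes enter, 4 repair genes were higher and 11 lower, 5 of them in break repair. Lower genes again made up a larger share of the repair genes than of all genes tested there. Higher genes made up a smaller share, but this contrast was weaker than in the main test. The median log2 fold change there was -0.61 over the repair genes and -0.01 over all 7070 genes tested. Fewer genes were not the only difference, since fold changes moved too. Those of Chek1, Rad52 and Nbn were 0.47, 0.77 and -0.49 there, against 0.25, 0.55 and -0.71 in the main test. In the shallow libraries alone, 6 repair genes were lower and 2 higher. The lower ones were 4 in break repair, 2 in excision repair and 0 in mismatch repair. In mismatch repair edgeR gave 2 lower at an unadjusted p under 0.05. Of all 15067 genes tested in the shallow libraries, 2088 were lower and 1906 higher. The share of repair genes called lower was thus near that of all genes. The median log2 fold change was -0.68 over the repair genes and 0.16 over all genes tested. In the deep libraries alone 12 were lower, 6 of them in break repair. The median log2 fold change there was -0.72 over the repair genes and 0.17 over all 15976 genes tested. Of all genes, 2063 were higher there, and more than that were lower. The share of repair genes called lower in the deep libraries was above that of all genes. These settings have 2 libraries per group. Within 50 kb, 12 repair genes had a region higher in IWR1 (28.6%, beside 28.1% of genes tested). A region lower in IWR1 lay within 50 kb of 5 (11.9%, beside 14.2%) and within 1 kb of 0 (0.636% of genes tested). Both shares within 50 kb are near the background. No other cause of these shifts was tested.

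Scaling by library totals moved the all-gene median to 0.34 (log2 fold change) and centring libraries on their medians moved it to 0.04, with the repair genes at -0.53 and -0.83. No paired analysis was possible because the IWR1 columns carry no replicate number of the labels. The largest standard error among the repair genes tested was 0.79, for Ercc2, the one of lowest mean level (0.501 FPKM). It was followed by 0.68 for Ogg1 (1.17 FPKM) and 0.62 for Xpc (0.937 FPKM). Next came 0.56 for Mre11a (2.02 FPKM) and 0.50 for Xrcc3 (2.54 FPKM), and the part of depth in these errors was not tested.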

Other observations

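Some repair genes share a start region head to head with a neighbour, within 1000 bases in RefSeq, and these pairs were looked up after the values of the repair genes were seen. There were 14 such pairs, with 13 neighbours tested. In 2 of these 13 both genes were lower in IWR1 (15.4%, beside 17.8% of all such pairs). Pms2 fell together with Aimp2, a subunit of the tRNA synthetase complex, at 69.1, 109, 100.0 and 80.1 FPKM in IWR1 against 245, 256, 179.9 and 246 FPKM in DMSO (log2 fold change -1.55, SE 0.18, edgeR adjusted p = 3.81e-05). Atm fell together with Npat, a regulator of histone gene transcription (-0.77, SE 0.26, adjusted p = 0.0279).

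In 8 of the 13 pairs with both genes tested, 1 gene was called and the other was not (61.5%), beside 47.8% of all 762 such pairs with both genes tested. Mre11a was not called, while its neighbour Ankrd49 was at 282, 209, 161 and 227 FPKM in IWR1 against 75.8, 74.0, 50.4 and 46.7 FPKM in DMSO (1.68, SE 0.22, edgeR adjusted p = 7.62e-05). Xrcc4 was not called, while Tmem167 was at 3.69, 6.04, 6.11 and 5.27 FPKM in IWR1 against 14.8, 15.3, 17.5 and 18.3 FPKM in DMSO (-1.84, SE 0.20, adjusted p = 3.03e-05). Both neighbours were separate between groups, in opposite directions. Palb2 was not called while Dctn5, a dynactin subunit, rose (1.22, SE 0.21, adjusted p = 0.000552), and Xrcc6 was not called while Desi1 rose (1.06, SE 0.20, adjusted p = 0.000878). Conversely Brca1 fell while Nbr1, an autophagy receptor gene, was not called (-0.05, SE 0.19, adjusted p = 0.838). The difference between the genes of a pair was not tested.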
